A study of Mus musculus with 4 samples.

Results

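The elastic fibre and adhesive matrix glycoproteins of the nasal mucosa were examined here as 10 genes, *Eln*, *Fbn1*, *Fbn2*, *Fbln1*, *Fbln2*, *Fn1*, *Tnc*, *Postn*, *Sparc* and *Vcan*, of 45604 genes or unmatched probe identifiers tested on the array. A probe belonged to the set if it was no control probe and its accession mapped to one of these symbols, and 21 probes did so. All 10 genes were represented, by 1 to 3 probes each.

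RNA came from the septal nasal mucosa, labelled as olfactory epithelium, of male C57BL/6 mice. The young adult group was 8 weeks old by the labels (2 months in the study's methods) and the aged group was 16 months old. Neither group carried a transgene or received a treatment. Each of the 4 arrays, 2 per age, was hybridized with Cy3-labelled RNA pooled from 5 mice, and separate pools would have taken more mice per age than the study lists for its gene analyses. Whether the pools shared mice is not stated, so P values measure the spread between these pools, which may be in part technical. The labels also carry a description of another experiment on lung, which matched neither the titles nor the study and was not used.

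An elastic fibre is a core of cross-linked elastin laid down on a scaffold of fibrillin microfibrils, with fibulins bridging the components, and it lets a tissue recoil after it is stretched. Fibronectin, tenascin C, periostin, SPARC and versican lie between the fibres and the cells: fibronectin binds integrins and collagen, the matricellular proteins tune adhesion and collagen assembly, and versican is a large proteoglycan that binds hyaluronan. In the nose these proteins belong mainly to the lamina propria beneath the epithelium, to vessel walls, and to the perichondrium, cartilage and bone of the septum.

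Of the 7 genes called lower in the aged mucosa below, 4 have a start site in the RefSeq promoter table used here, and the 250 bases before that start are printed to show what stretches in front of genes that fell together have in common in their letters. The windows are from GRCm38.p6, read 5′ to 3′ on the strand of the gene. They are chr2:125506439-125506688 on the minus strand for *Fbn1*, chr4:64047016-64047265 on the minus strand for *Tnc*, chr3:54359017-54359266 on the plus strand for *Postn* and chr11:55420081-55420330 on the minus strand for *Sparc*. Capitals mark matches to the motifs that were searched on both strands.
Fbn1: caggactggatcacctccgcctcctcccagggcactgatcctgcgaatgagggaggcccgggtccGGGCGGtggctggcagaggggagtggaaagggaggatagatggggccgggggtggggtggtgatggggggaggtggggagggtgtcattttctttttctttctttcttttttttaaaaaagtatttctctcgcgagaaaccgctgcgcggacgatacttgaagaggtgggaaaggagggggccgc
Tnc: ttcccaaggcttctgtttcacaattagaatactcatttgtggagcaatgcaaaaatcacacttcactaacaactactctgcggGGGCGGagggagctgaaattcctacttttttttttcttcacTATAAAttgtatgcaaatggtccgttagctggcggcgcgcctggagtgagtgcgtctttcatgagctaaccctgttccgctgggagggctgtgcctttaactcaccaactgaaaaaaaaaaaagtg
Postn: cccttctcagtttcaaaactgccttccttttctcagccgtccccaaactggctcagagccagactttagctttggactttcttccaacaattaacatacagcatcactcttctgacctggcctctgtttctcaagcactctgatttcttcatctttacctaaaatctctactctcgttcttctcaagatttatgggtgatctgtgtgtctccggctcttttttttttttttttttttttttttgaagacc
Sparc: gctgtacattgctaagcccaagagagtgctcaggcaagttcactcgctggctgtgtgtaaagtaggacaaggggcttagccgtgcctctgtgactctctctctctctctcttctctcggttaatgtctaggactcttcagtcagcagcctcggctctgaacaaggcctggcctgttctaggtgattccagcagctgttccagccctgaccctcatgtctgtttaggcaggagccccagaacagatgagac

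The motifs were the TATA box (TATAAA), the CCAAT box (CCAAT), the GC box (GGGCGG), the AP-1 site (TGANTCA) and the TEAD site (CATTCC). The *Fbn1* window held a GC box that began 185 bases before the start. The *Tnc* window held a GC box at 167 bases and a TATA box at 126 bases before the start. The windows of *Postn* and *Sparc* held none of the 5 motifs, so no motif of the search was shared by all 4. The base composition differed as well, with 59.2% G or C in the *Fbn1* window, 54.0% in *Sparc*, 44.8% in *Tnc* and 40.4% in *Postn*, against a median of 52.4% over all windows. With the windows of *Fbln1*, *Fbln2* and *Vcan* added, 4 of 7 held a GC box, 1 a TATA box, 1 a CCAAT box, and 0 an AP-1 or TEAD site. Of 32851 windows of that length in the table, 32.7% held the GC box, 12.4% the TATA box, 33.9% the CCAAT box, 6.75% the AP-1 site and 12.6% the TEAD site. For the 3 genes with more than 1 start, *Fbln1*, *Tnc* and *Postn*, the outermost start was used. A match is a description of letters and not a binding site. *Eln*, *Fbn2* and *Fn1* were not in the table.

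Expression levels are given as normalized intensity, the brightness of a gene's probes after background correction and quantile normalization, which has no unit. A difference is the aged minus the young adult mean on the log2 scale, with its SE and the false discovery rate (FDR) of limma adjusted over all 45604 genes. The call required P below 0.05 together with FDR below 0.25, the limits of the study's methods. By this rule 7 of the 10 genes were lower in the aged mucosa, namely *Eln*, *Fbn1*, *Fbn2*, *Fn1*, *Tnc*, *Postn* and *Sparc*, and 0 were higher, where 2.33% of all genes were called lower and 1.65% higher. Without adjustment 9 of the 10 were lower at P below 0.05 and 0 were higher, where 7.08% of all genes were lower and 6.05% higher at that limit. Among the 25513 genes with a mean level of at least 100, as all 10 had, 3.28% were called lower and 2.13% higher. The 7 called genes also met the study's further limits for a differentially expressed gene, a mean level of at least 100 and a fold change of at least 1.5, as 1.15% of all genes did in the downward direction. The mean level is over all 4 arrays, and the aged means of *Fbn2* (91.9) and *Tnc* (95.9) alone were below 100. In all 10 genes the higher aged array lay below the lower young adult array, which was so for 21.8% of all genes, while 24.2% of all genes had both aged arrays above. The median difference of the 10 genes was -1.00, against 0.0093 over all genes tested and 0.0147 over genes with a mean level of at least 100. With 2 arrays per age an exact permutation test of a single gene cannot go below a two-sided P of 0.333, so all calls rest on limma's model of the spread. That model joins the gene's own spread between pools (2 residual degrees of freedom) with a spread pooled across genes (1.38 prior degrees of freedom). With any one array left out, 0 of all 45604 genes were called in either direction, so the 7 calls were lost with the rest, and the lowest FDR among the 10 genes then lay between 0.404 and 0.683. The age with a lone array is assumed there to vary like the other.

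**Figure D1:**
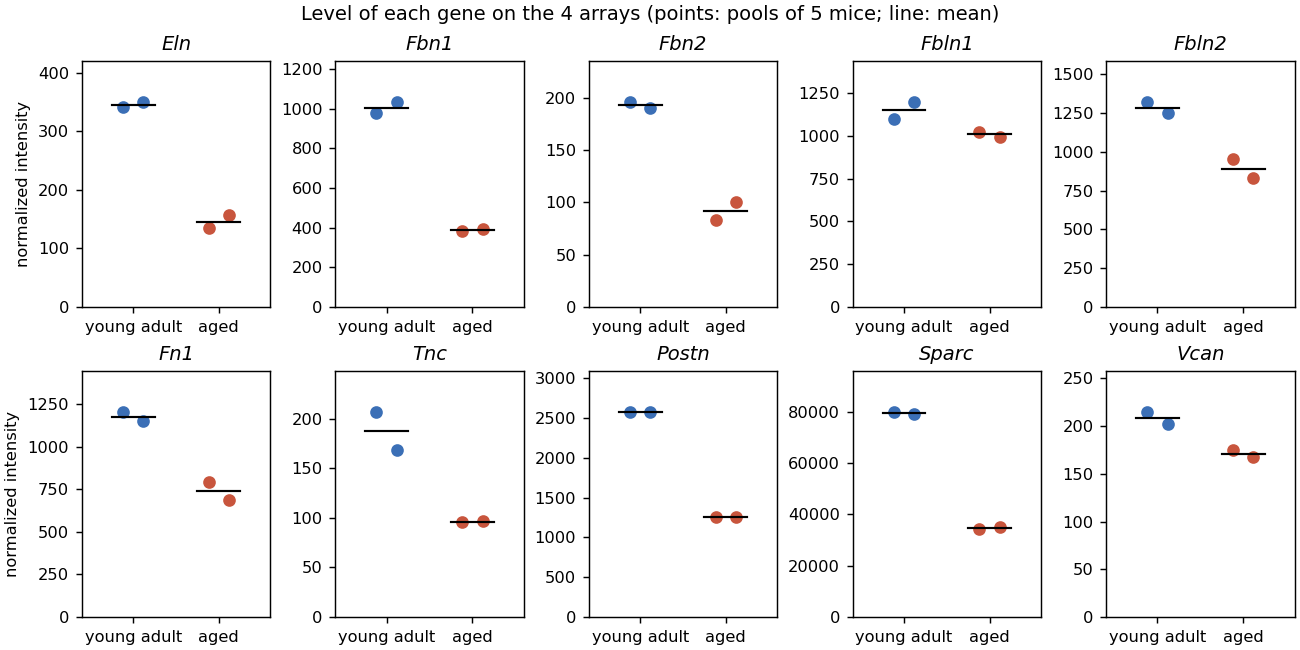
Normalized intensity (vertical axis, from 0, own scale for each gene) of the 10 genes on the 4 arrays; blue points are the young adult pools, red points the aged pools and lines the means of 2 pools. In each panel both red points lie below both blue points, with the narrowest gap in *Fbln1*.

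Elastin and both fibrillins measured were called lower. *Fbn1*, which encodes fibrillin 1, the main microfibril protein, had levels of 976 and 1034 in young adult and 381 and 394 in aged mucosa. The pools of an age lay close together and far from the other age, and the difference of -1.37 ± 0.0825 (SE; FDR = 0.168) was the largest of the 10 genes. Its aged level was 38.6% of the young adult level, and in order of size the fall ranked 67 among the 25513 genes with a mean level of at least 100.

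*Eln* encodes tropoelastin, the soluble precursor that is cross-linked into the elastic core. Its levels were 342 and 350 in young adult and 134 and 156 in aged mucosa. The aged pools differed from each other by 15.4% of their mean and the young adult pools by 2.49%. Both were small beside the difference of -1.26 ± 0.114 (FDR = 0.178), which left 41.9% of the young adult level. The 2.49% is for the average of 2 probes that ordered the young adult pools differently. They read 476 and 367, and 245 and 334, on young adult arrays 1 and 2. Their own differences had SEs of 0.184 and 0.201. *Fbn2*, the second fibrillin and the one best known from developing tissue, had levels of 196 and 190 in young adult and 83.4 and 100 in aged mucosa. The groups did not overlap, the aged pools lay 18.4% apart, and the difference was -1.08 ± 0.127 (FDR = 0.193). The 2 *Fbn2* probes also ordered the young adult pools differently, at 304 and 362 and at 126 and 100.

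The fibulins, calcium-binding glycoproteins that sit at the border of elastic fibres and basement membranes, were not called. *Fbln2* had levels of 1321 and 1248 in young adult and 953 and 830 in aged mucosa. The ages did not overlap, and the difference of -0.53 ± 0.111 had an FDR of 0.265, just past the limit. It was called under 9 of 19 other ways of processing that gave a test. *Fbln1* had levels of 1101 and 1198 in young adult and 1024 and 993 in aged mucosa. Its lower young adult pool and its higher aged pool were 6.96% apart, and the difference of -0.19 ± 0.0889 (FDR = 0.497) had a 95% confidence interval from -0.45 to 0.08, which includes 0.

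*Fn1*, fibronectin, which links integrins on the cell surface to collagen and other matrix, had levels of 1202 and 1148 in young adult and 790 and 684 in aged mucosa. The ages did not overlap, and the difference was -0.68 ± 0.112 (FDR = 0.228), the smallest among the called genes. The call was lost with 75th percentile scaling in place of quantile normalization (FDR = 0.272) and with the scanner software's processed signal under that scaling (FDR = 0.300), while the difference stayed at -0.67 and -0.71.

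The 3 matricellular genes were all called lower. *Sparc*, whose product binds collagen and is abundant in bone and remodelling tissue, had levels of 79932 and 79072 in young adult and 34514 and 35027 in aged mucosa. The pools of an age differed by 1.08 and 1.48% of their mean, and the difference was -1.19 ± 0.0743 (FDR = 0.174). *Postn*, periostin, a protein of periosteum and other collagen-rich connective tissue that takes part in collagen cross-linking, had levels of 2574 and 2576 in young adult and 1259 and 1257 in aged mucosa. In the average of its 3 probes these were the tightest pools of the set, 0.0547 and 0.0941% apart. Its brightest probe alone read 1856 and 1977 in aged mucosa. The aged level over all 3 probes was 48.9% of the young adult level, a difference of -1.03 ± 0.0736 (FDR = 0.178).

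*Tnc*, tenascin C, an adhesion-modulating glycoprotein of developing and repairing tissue, had levels of 206 and 168 in young adult and 95.3 and 96.6 in aged mucosa. Here the young adult pools were the ones apart, by 20.5% of their mean, and the difference was -0.96 ± 0.136 (FDR = 0.208). *Vcan*, versican, had levels of 215 and 202 in young adult and 175 and 167 in aged mucosa. The ages did not overlap, but the difference of -0.29 ± 0.0846 had a P of 0.0361 in limma and an FDR of 0.344 and was not called, and its 95% confidence interval ran from -0.54 to -0.03.

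**Figure D2:**
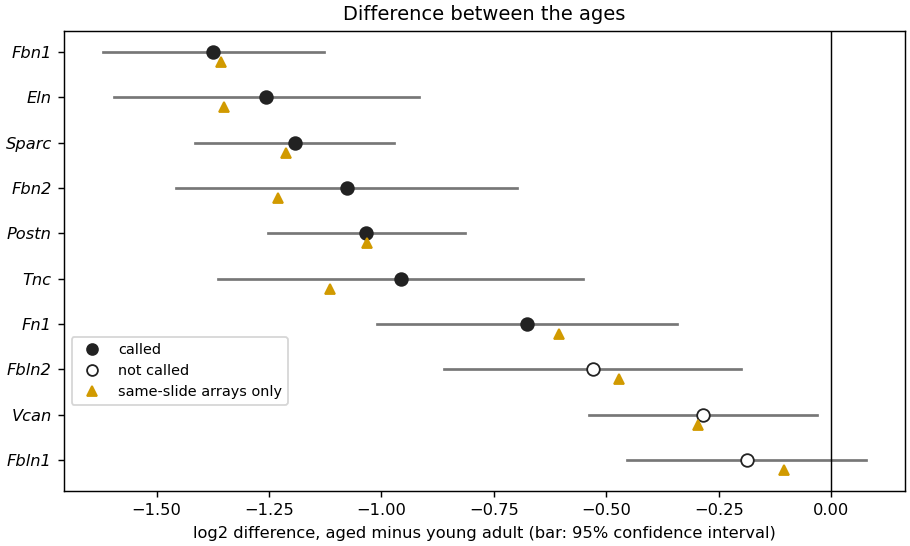
Difference between the ages for each gene (horizontal axis, log2, aged minus young adult) with its 95% confidence interval from limma; filled points were called, open points were not, and triangles give the difference between the 2 arrays that shared a slide. *Fbn1*, *Eln*, *Sparc*, *Fbn2*, *Postn* and *Tnc* lie near or beyond -1, *Fn1* and *Fbln2* lie between -0.5 and -0.7, and *Vcan* and *Fbln1* lie closest to 0.

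Young adult array 1 and aged array 1 shared a slide, which held no other array of the series. Between the arrays of the shared slide all 10 genes were lower in aged mucosa, from -1.36 for *Fbn1* to -0.10 for *Fbln1*. *Eln* differed by -1.35 there, *Fbn2* by -1.23, *Tnc* by -1.12 and *Sparc* by -1.21, and *Fn1* by -0.60. Spots well above background made up 68.1 and 76.8% in young adult and 63.1 and 72.7% in aged mucosa, so that on the shared slide and between the other arrays the aged array had the smaller share. Its part in the differences of the 10 genes was not tested. No spot was saturated on any array.

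The 21 probes were also fitted one by one, with adjustment over 56593 probes. Of these, 14 were called lower and 0 higher, where 2.65% of all probes were called lower. Taken by direction, 20 were lower and 1 was higher, and 19 had no overlap between the ages, with the aged arrays below. The share of all probes with no such overlap was not counted, and over all genes it was 21.8%. On all 4 arrays 17 of the probes were well above background, and the other 4 were so on 3 arrays.

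The probes of *Fbn1* differed by -1.47 and -1.28, those of *Eln* by -1.41 and -1.10, those of *Fbn2* by -1.15 and -1.01 and those of *Postn* by -1.09, -1.00 and -1.01. Every one of them was called. Both *Sparc* probes were called too, at -1.39 and, for the brighter, -0.99, with 95% confidence intervals of -1.65 to -1.14 and -1.23 to -0.76. They lay 0.40 apart, the widest range after those of *Fn1* and *Vcan*. Of the *Tnc* probes, the one at -1.07 was called and the other, at -0.84 (FDR = 0.280), was not and was not well above background on aged array 1.

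*Fn1* and *Vcan* were the genes whose probes lay furthest apart, with ranges of 0.80 and 0.89. For *Fn1*, the probes on its main transcript record differed by -0.95 ± 0.0755 and -0.93 ± 0.0761 and were called. The third, designed to another *Fn1* transcript record, read 220 and 184 in young adult and 221 and 149 in aged mucosa, so that the ages overlapped, with a difference of -0.15 ± 0.247. The *Fn1* value over all 3 probes therefore averages unlike readings, and the brightest probe alone gave -0.95.

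For *Vcan*, the brightest probe read 1139 and 1389 in young adult and 751 and 849 in aged mucosa, a difference of -0.66 ± 0.148 with an FDR of 0.272. The other probes differed by -0.44 and 0.24, had signals near 100 or below, and were not well above background on aged array 1. None of the 3 was called on its own. *Fbln1* and *Fbln2* rested on 1 probe each.

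**Figure D3:**
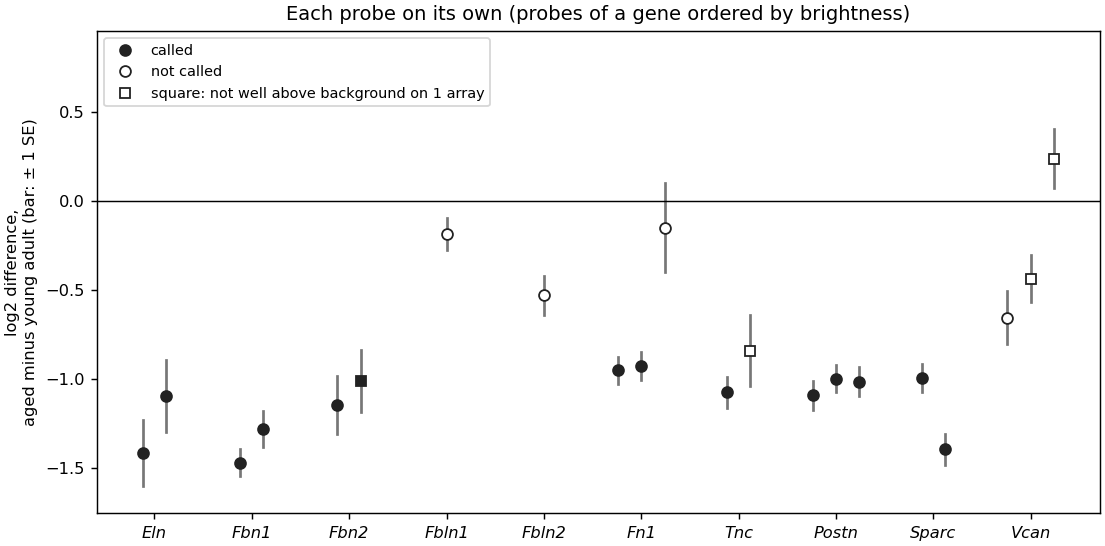
Difference between the ages for each of the 21 probes (vertical axis, log2, aged minus young adult; bars, ± 1 SE), grouped by gene and ordered by brightness within a gene; filled symbols were called and squares were not well above background on 1 array. All probes lie below 0 except the dimmest of *Vcan*, and the third *Fn1* probe lies apart from the other two.

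The same comparison was made for 116 other genes in 5 lists that surround these proteins. Of all 116, 29 were called lower and 1 higher, with a median difference of -0.30, against 0.0093 over all genes. Over all genes 2.33% were called lower and 1.65% higher, the shares to set beside the calls in each list below. Before adjustment, 50 were lower and 4 higher at P below 0.05, a limit that 7.08% of all genes passed downwards and 6.05% upwards. The count of lower genes was 24 to 66 under the 13 other ways of preparing the values, testing each probe or modelling the spread, while the count over all features went from 826 to 3706 in the same 2 settings.

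Among 29 partners in elastic fibre assembly, which include the microfibril-associated proteins, further fibulins, emilins, latent TGF-beta binding proteins and lysyl oxidases, 8 were called lower and 1 higher (median -0.32). *Loxl2*, a lysyl oxidase family enzyme that cross-links collagen and elastin, went from 1241 and 1285 to 628 and 633, a difference of -1.00 ± 0.0762 (FDR = 0.178). *Mfap2*, a small microfibril protein, went from 754 and 799 to 384 and 443, a difference of -0.91 ± 0.113. *Emilin2*, an elastin interface protein, was the gene that rose, from 551 and 548 to 1039 and 992, a difference of 0.89 ± 0.0780 (FDR = 0.178), with both aged arrays well above both young adult arrays.

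Of 36 other matricellular and adhesive glycoproteins, 8 were called lower and 0 higher (median -0.22), with 15 lower and 1 higher at an unadjusted P below 0.05. *Spp1*, osteopontin, an adhesive phosphoprotein of bone and of macrophages, had the largest fall, from 8866 and 8793 to 3516 and 3531, a difference of -1.33 ± 0.0738. *Dpt*, dermatopontin, a matrix protein of connective tissue, differed by -1.24 ± 0.197 and *Ccn1*, an integrin-binding matricellular protein, by -0.65 ± 0.0743.

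Of 17 genes for hyaluronan synthesis and turnover, hyalectans and link proteins, the circle to which *Vcan* belongs, 3 were called lower and 0 higher (median -0.26), with 4 lower and 1 higher before adjustment. *Acan*, aggrecan, the hyalectan of cartilage, read 220 and 163 in young adult and 76.5 and 77.7 in aged mucosa, a difference of -1.30 ± 0.180. It was well above background on 3 arrays. *Tnfaip6*, a hyaluronan-binding protein, differed by -0.90 ± 0.136, and *Stab2*, a scavenger receptor for hyaluronan on sinusoidal endothelium, by -0.58 ± 0.110.

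Of 23 matrix receptors, integrins and syndecans together with the collagen-binding kinases *Ddr1* and *Ddr2*, 3 were called lower and 0 higher (median -0.25), with 7 lower and 1 higher before adjustment. *Itga11*, the alpha chain of a collagen receptor of mesenchymal cells, went from 2512 and 2458 to 1217 and 1301, a difference of -0.98 ± 0.0832. *Itga6*, the alpha chain of laminin receptors, differed by -0.61 ± 0.0863 and *Itgb3*, the beta chain of the vitronectin receptor, by -0.57 ± 0.0879. Most receptors of this list, 20 of 23, were not called.

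Of 11 fibrillar collagen genes, the main partners of fibronectin, periostin and SPARC in the fibre network, 7 were called lower and 0 higher, both with and without adjustment (median -1.15). *Col1a1* differed by -1.98 ± 0.0874, *Col3a1* by -1.97 ± 0.0847 and *Col2a1*, the collagen of cartilage, by -1.84 ± 0.110. The lists differ in size and in how many low-intensity genes they hold, and no test compared them with each other or with the 10 genes.

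**Figure D4:**
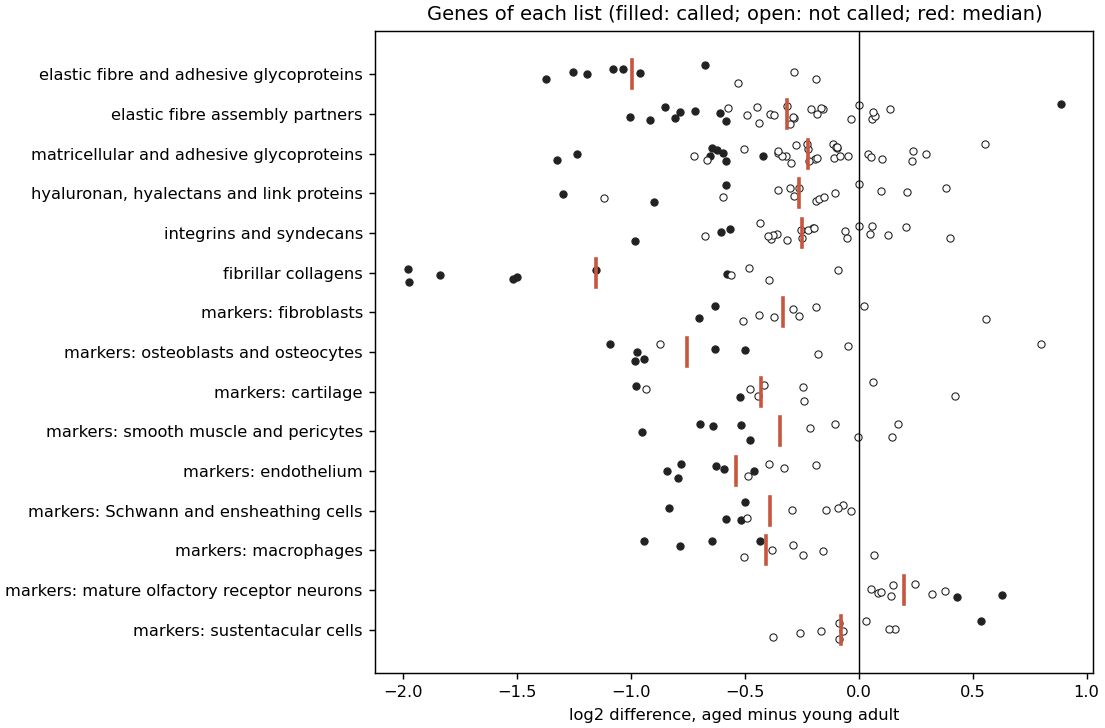
Differences between the ages (horizontal axis, log2, aged minus young adult) of every gene in the 10-gene set, the 5 surrounding lists and 9 lists of cell type markers; filled points were called and red bars are medians. The medians of the 10 genes and of the fibrillar collagens lie near -1, those of the other lists of matrix genes lie between -0.22 and -0.32, and the markers of mature olfactory receptor neurons lie above 0.

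The arrays read whole mucosa, so fewer cells of a type and less RNA per cell cannot be told apart. The tissue label was checked with *Omp*, the olfactory marker protein of mature olfactory receptor neurons (ORNs), which had levels of 300826 and 286061 in young adult and 317836 and 332591 in aged mucosa, a difference of 0.15 ± 0.0826 (FDR = 0.549). All 10 ORN markers had both aged arrays above both young adult arrays, as had 24.2% of all genes. Of these markers 2 were called higher and 0 lower, where 1.65% of all genes were called higher and 2.33% lower. The summed level of the 10, with *Omp* as its largest part, was 569736 to 578574 in young adult and 631992 to 639990 in aged mucosa. Of the markers of sustentacular cells, the supporting cells of the epithelium, 0 were called lower and 1 higher.

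Marker lists of the cells that make or border this matrix were also lower in part, where 2.33% of all genes were called lower and 1.65% higher. Of 10 osteoblast and osteocyte markers, 6 were called lower and 0 higher, and their summed level went from 29288 to 31531 in young adult to 15255 to 15987 in aged mucosa. The largest fall was that of *Ibsp*, bone sialoprotein, at -1.09 ± 0.119, and *Sost*, a defining osteocyte gene whose probe did not rise well above background anywhere, was the only one of the list to differ upwards, at 0.80 ± 0.220 (not called). Of 10 endothelial markers, 6 were called lower and 0 higher, with a summed level of 36051 to 36890 in young adult and 23063 to 23371 in aged mucosa. *Tie1* had the largest fall of these at -0.84.

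Of 10 fibroblast markers, 2 were called lower and 0 higher, with a summed level of 96787 to 109646 in young adult and 83777 to 89131 in aged mucosa. *Dcn*, which was not called, was the largest part of that sum, at 79509 and 66063 in young adult and 66826 and 60593 in aged mucosa. At unadjusted P below 0.05 in limma 5 were lower and 0 higher, where 7.08 and 6.05% of all genes were. *Lum*, lumican, had the largest fall at -0.70 ± 0.0774, while *Tcf21* did not rise well above background anywhere. Of 10 cartilage markers, 2 were called lower and 0 higher, with a summed level of 5453 to 5592 in young adult and 4472 to 4694 in aged mucosa. Without adjustment 7 of the cartilage markers were lower and 0 higher at P below 0.05 in limma.

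Of 10 smooth muscle and pericyte markers, 5 were called lower and 0 higher, and the summed level was 61184 to 62911 in young adult and 59584 to 60528 in aged mucosa. *Tagln*, which was not called, was the largest part of that sum, at 29696 and 27989 in young adult and 29127 and 28336 in aged mucosa. The differences of the list ran from -0.95 for *Kcnj8* to 0.17 for *Rgs5*. Of 10 Schwann and ensheathing cell markers, 4 were called lower and 0 higher, with a summed level of 22686 to 23573 and 17140 to 18262. Of 10 macrophage markers, 4 were called lower and 0 higher, with a summed level of 14274 to 14617 and 11837 to 11971. The part of these cell types in the differences of the 10 genes was not tested.

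The 10 genes kept their direction under each of the other ways of processing that gave a value per gene. The values of *Fbn2* moved most, from -1.54 with the scanner software's processed signal under 75th percentile scaling to -0.77 with an offset of 50, and those of *Tnc* went from -1.13 to -0.70 between the same settings. With quantile normalization kept, the processed signal gave -1.50 for *Fbn2* and -1.11 for *Tnc*. *Postn* stayed between -1.09 and -1.00 and *Sparc* between -1.21 and -0.99. *Vcan* ranged from -0.66 with its brightest probe to -0.24 without young adult array 1. It was called under 5 of 19 tested alternatives. Among these was the setting without dim probes (FDR = 0.111), which dropped no *Vcan* probe, so its difference stayed at -0.29. That call therefore does not show *Vcan* without its dimmer probes, which were not well above background on aged array 1.

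**Figure D5:**
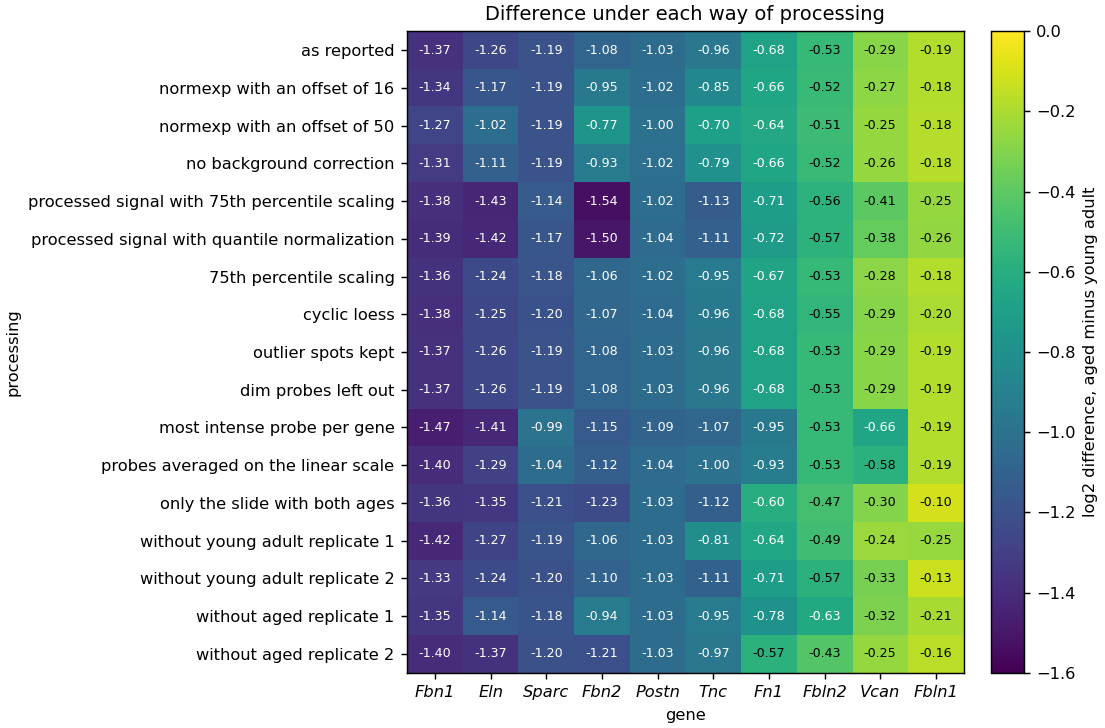
Difference between the ages (colour and printed value, log2, aged minus young adult) of the 10 genes (columns) under the processing reported and 16 alternatives (rows) that can change a difference. Every cell is below 0, and the order of the genes from *Fbn1* to *Fbln1* is broadly kept, with *Fbn2*, *Tnc* and *Vcan* changing most between rows.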

How the data were processed

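The authors hybridized Cy3-labelled RNA of septal nasal mucosa to Agilent SurePrint G3 Mouse GE arrays and extracted spot intensities with Feature Extraction 11.0.1.1. They deposited the median spot intensity, the median local background intensity, a processed intensity and quality flags, without normalization between arrays. The values of the whole-series table were identical to the processed intensity (62976 spots per array).

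The median spot intensity was corrected with normexp, offset 0 (limma 3.58.1, R 4.3.3). It was used because the mean signal that was planned for was not among the columns. Control spots and outlier spots (88 to 118 per array) were left out. Spots of a probe were averaged, log2 values were quantile normalized, and probes of a gene were averaged. Accessions named 32994 of 56605 probes through RefSeq, and 12 probes with a missing value were left out. The ages were compared with lmFit and eBayes on all 4 arrays (2 per age, no covariates), with Benjamini-Hochberg adjustment. The number of arrays limits the precision.

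The members and the gene lists were chosen with earlier results of these data known. Named were all 10 members, the 3 called genes of each surrounding list with the largest absolute difference at a mean level of at least 100, every list gene called higher, the largest and smallest difference of marker lists, and *Omp*. The replicate numbers were not used to pair the samples in the reported fit, although the arrays numbered 1 shared a slide. Alternatives covered background, normalization, flags, dim probes, probe averaging, spread, pairing, slide, thresholds and each array left out. Histology and PCR were not analysed here.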

Additional observations from a re-analysis of the deposited data

How the results depend on the processing

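Of 21 alternatives, 20 gave a value for each of the 10 genes. All 150 recomputed values, from 15 alternatives, were below 0. The 50 from the other 5, which include the setting without dim probes, repeat the reported difference and add nothing on direction. Of 190 tested values, 131 kept their side of the threshold, 44 lost and 15 gained the call, and of 10 values without a test 2 moved by more than their SE. Members called lower (7) became 0 at an FDR below 0.05, 0 with a replicate block and 0 to 0 with each array left out in turn, and pathway genes called lower (29) and higher (1) became 0 and 0 in the same settings (0 to 0 with each array left out). In each of these settings 0 of all genes were called. At unadjusted P below 0.05, the replicate block left 8 members and 47 pathway genes lower and 4 pathway genes higher, and leaving out an array left 7 to 8, 31 to 37 and 1 to 4, where 6.48 and 4.91% of all genes passed under the block and 3.71 to 6.44% and 3.50 to 5.85% with an array left out. The lowest member FDR under the replicate block was 0.433. The arrays numbered 1 shared a slide as well as a number, and those numbered 2 lay on different slides. The deviations of same-numbered arrays from the mean of their age had a correlation of -0.0779 across genes. With 2 arrays per age this value is the same for both pairs and cannot show what a pair shares. Pathway genes called lower were 52 with an offset of 50, 47 without background correction, 66 without dim probes and 63 with an intensity trend, and those called higher were 3 in these 4 settings and with an offset of 16, 2 with the processed signal under 75th percentile scaling and 4 under quantile normalization. Leaving out dim probes lowered the number of genes tested, and the cause of the other changes was not tested. Slide as a random block was not run, because it could not be fitted to 4 arrays. A fit with the slide as a fixed term leaves no residual degrees of freedom. Members called lower were otherwise 6 to 9. *Fbln1* was called only with an intensity trend (FDR = 0.217). The 4 member probes not well above background on aged array 1, which the setting without dim probes kept, limit the values of *Fbn2*, *Tnc* and *Vcan*.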
